A study of Mus musculus with 6 samples.

Results

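Stat2, Irf1, Irf7, Irf9, Ifit1, Ifit3, Isg15, Parp14 and Ifih1 are transcription factors and classic induced genes of the interferon response. They were chosen by symbol, with earlier results of these data known. All 9 of the 9 listed symbols were found among the 13384 genes of the count table. Polyadenylated RNA was sequenced in bulk from the left ventricle of 6 adult mice, each library from an individual mouse. The 3 knockout mice carried a global Cygb(-/-) deletion of cytoglobin, a globin of fibroblasts and vascular wall cells, in every cell type. The 3 wild-type mice were Cygb(+/+) littermates. Mice of both genotypes had angiotensin II, a pressor hormone, delivered by a pump under the skin (1.5 mg/kg/day, 2 weeks). Uninfused mice were not analysed here, so every level below is that of a heart under this stress. The sources used here do not give the strain, or an age other than adult.

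Interferons are cytokines, and those of type I are released by cells that sense foreign or misplaced nucleic acid. Type I interferons act through the receptor IFNAR and the kinases JAK1 and TYK2, which phosphorylate STAT proteins. STAT2 joins IRF9 in the complex ISGF3, which binds the interferon-stimulated response element (ISRE) in the promoters of induced genes. Interferon gamma acts mainly at another element, the gamma-activated site (GAS), and IRF1 is an early target of it. IRF7 amplifies the type I response, and the induced genes include RNA-binding antiviral proteins, a ubiquitin-like modifier and the RNA sensors themselves. In the heart, cardiomyocytes, endothelial cells, fibroblasts and macrophages can all respond.

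The promoters were read first, for strings like the 2 elements named above. A RefSeq promoter window (GRCm38.p6, from 250 bases before to 50 bases after a transcript start) was matched for 8 of the 9 genes, all but Parp14. The ISRE-type string searched was GAAA, any 2 bases, GAAA, on both strands, and overlapping matches were each counted. It was present in the windows of 5 of the 8, namely Stat2, Ifit1, Ifit3, Isg15 and Ifih1. Of all 27025 genes with a window of that length, 3.99% held it. So did 20 of 47 other induced genes and 9 of 9 GTPase genes of the lists taken up below. The longer form has any base and a T after the second GAAA. It was present in 3 of the 8 (Ifit1, Ifit3 and Isg15), against 0.96% of all 27025 genes. The GAS-type string was TTC, any 3 bases, GAA, which reads the same on both strands. It was present in 1 of the 8, Irf1, against 9.55% of all 27025 genes. Irf7 and Irf9 held neither string. The 9 genes are known targets or regulators of the factors that bind these elements. A raised share of the ISRE-type string was thus likely from the choice of genes alone, and the shares are description only. The strings are descriptions of these letters and not measured binding. The stretches that hold them are shown 5′ to 3′ on the strand of the gene, with the matched letters in capitals, to let the spacing be seen. The ISRE-type string of Ifih1 began after the transcript start and is not printed.
Stat2 (chr10:128270261-128270300, plus strand, string starting 222 bases upstream of the start): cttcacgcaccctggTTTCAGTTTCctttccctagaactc
Ifit1 (chr19:34640770-34640828, plus strand, strings starting 104 and 85 bases upstream): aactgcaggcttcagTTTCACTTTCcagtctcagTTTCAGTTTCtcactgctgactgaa
Ifit3 (chr19:34583358-34583431, plus strand, strings starting 156 and 122 bases upstream): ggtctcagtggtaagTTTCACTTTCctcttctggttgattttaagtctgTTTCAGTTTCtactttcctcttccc
Isg15 (chr4:156200860-156200911, minus strand, 3 overlapping strings starting 78, 72 and 66 bases upstream): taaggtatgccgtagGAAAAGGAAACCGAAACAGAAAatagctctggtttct
Irf1 (chr11:53769909-53769947, plus strand, GAS-type string starting 90 bases upstream): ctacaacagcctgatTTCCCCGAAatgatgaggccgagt
Ifit1 and Ifit3 each carried a pair of the strings, and Isg15 carried an overlapping run of 3.

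All 9 genes had a log2 fold change (knockout minus wild type) above 0, with a median of 0.43, and none passed the test over all genes. Of the 13384 genes, 49.45% were above 0 and the median was -0.0045. As the 9 were chosen with earlier results of these data known, shares of all genes are set beside them as description only. In edgeR's quasi-likelihood test with Benjamini-Hochberg adjustment at 0.05, 0 of the 9 were called, against 0.112% of all genes. At an unadjusted edgeR p under 0.05, 5 of the 9 were higher in the knockout (Parp14, Irf7, Ifit1, Ifit3 and Ifih1) and 0 lower, against 10.2% of all genes that were higher. The groups did not overlap, with the knockout higher, for 4 of the 9 (Parp14, Irf7, Ifit1 and Isg15), against 11.8% of all genes. DESeq2 called 1 of the 9, Parp14, higher, against 2.68% of the genes it tested. The count of 5 rested on 2 libraries in part. It fell to 2 when knockout replicate 2 was left out (all genes 9.3%), and to 2 when wild-type replicate 3 was (all genes 6.15%). In such bulk samples, a difference in the number of cells of a type cannot be told apart from one in RNA per cell.

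**Figure D1:**
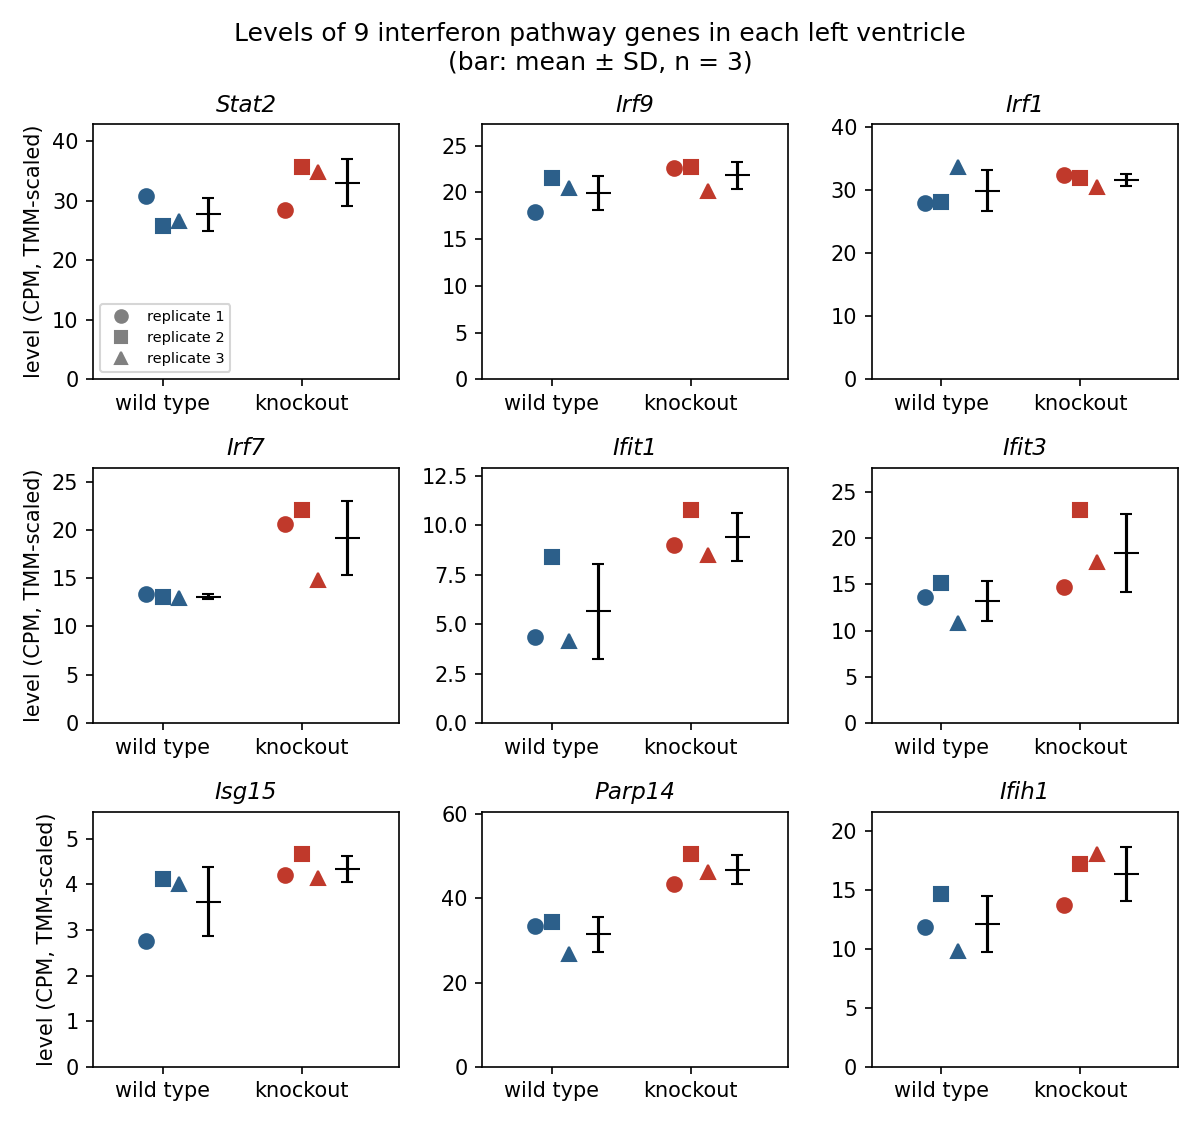
TMM-scaled CPM of the 9 genes in each library (vertical axes, from 0), for 3 wild-type and 3 knockout ventricles. Symbols are replicate numbers and the bars beside them are the mean ± SD. The knockout points of Parp14 and Irf7 lie above all wild-type points, those of Ifit1 and Isg15 do so by less than 0.1 CPM, and those of the other 5 genes overlap the wild type.

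Among the transcription factors, Irf7 had the largest difference. Irf7 (chromosome 7, 141262706 to 141266481, minus strand in GRCm38) encodes the factor that amplifies type I interferon production. It was at 20.6, 22.01 and 14.8 CPM in knockout replicates 1, 2 and 3, where CPM is a gene's count relative to the TMM-scaled total of its library. Wild-type replicates, in the same order, were at 13.3, 13.03 and 12.9 CPM. The wild-type values were close together, knockout replicates 1 and 2 stood well above them, and knockout replicate 3 lay only just above. The knockout mean was 19.1 ± 3.84 CPM and the wild-type mean 13.1 ± 0.221 CPM (SD, n = 3 each), a 1.46-fold difference (log2 fold change 0.55, SE 0.17, edgeR adjusted p = 0.125). That p ran from 0.0577 to 0.328 over 17 alternative analyses.

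The partners of the ISGF3 complex differed less. Stat2 (chromosome 10, 128270559 to 128292849, plus strand) encodes the STAT particular to type I and type III interferon signalling. It was at 28.5, 35.7 and 34.9 CPM in the knockout and at 30.8, 25.7 and 26.5 CPM in the wild type. Knockout replicate 1 lay below wild-type replicate 1, so the groups overlapped (log2 fold change 0.25, SE 0.14, edgeR adjusted p = 0.342). Irf9 (chromosome 14, 55603571 to 55610030, plus strand) encodes the DNA-binding subunit of the complex. It was at 22.6, 22.8 and 20.2 CPM in the knockout and at 17.9, 21.5 and 20.4 CPM in the wild type. Those groups overlapped as well (0.13, SE 0.14, edgeR adjusted p = 0.630).

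Irf1 (chromosome 11, 53770014 to 53778374, plus strand), whose promoter held the GAS-type string, differed least of the 9. It was at 32.5, 31.9 and 30.6 CPM in the knockout and at 28.0, 28.1 and 33.7 CPM in the wild type. Wild-type replicate 3 was the highest of the 6 libraries, and the difference was smaller than its standard error (log2 fold change 0.079, SE 0.13, edgeR adjusted p = 0.773). A change of the size seen for Irf7 was not detected in Irf1, but the difference between these genes was not tested.

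Of the induced genes, Parp14 had the smallest p-value. Parp14 (chromosome 16, 35832874 to 35871544, minus strand) encodes a mono-ADP-ribosyltransferase with macrodomains. It was at 43.5, 50.4 and 46.3 CPM in the knockout and at 33.4, 34.3 and 26.7 CPM in the wild type. Each knockout library lay above each wild-type library by a clear margin. The means were 46.8 ± 3.49 CPM and 31.5 ± 4.14 CPM, a 1.49-fold difference (log2 fold change 0.57, SE 0.14, edgeR adjusted p = 0.0795). DESeq2 called it (adjusted p = 0.0148), and the adjusted p ran from 0.0134 to 0.347 over 17 alternatives, of which 2 passed.

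Ifit1 and Ifit3 encode tetratricopeptide proteins, of which IFIT1 binds foreign RNA. Ifit1 (chromosome 19, 34640871 to 34650009, plus strand) was at 8.98, 10.7 and 8.47 CPM in the knockout and at 4.36, 8.41 and 4.16 CPM in the wild type. Wild-type replicate 2 was nearly level with the lowest knockout library, and the other wild-type libraries were about level with each other. Its log2 fold change, 0.74, was the largest of the 9 (SE 0.26, edgeR adjusted p = 0.165). With wild-type replicate 2 left out, the value was 1.15 (edgeR adjusted p = 0.00724).

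Ifit3 (chromosome 19, 34583531 to 34588731, plus strand) was at 14.7, 22.97 and 17.4 CPM in the knockout and at 13.6, 15.2 and 10.8 CPM in the wild type. Knockout replicate 2 was the highest, and knockout replicate 1 lay below wild-type replicate 2 (log2 fold change 0.48, SE 0.19, edgeR adjusted p = 0.203). Without knockout replicate 2 it was 0.28 (edgeR adjusted p = 0.484). Ifit3 has a near copy, Ifit3b, in the same cluster. Their longest coding transcripts in GENCODE M21 aligned over 1700 bases at 97.824% identity, so the authors' counting could split their reads and both values are uncertain. Ifit3b averaged 5.65 ± 1.56 CPM in the knockout, with 4.27 ± 0.649 CPM in the wild type (0.41, SE 0.24).

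Isg15 (chromosome 4, 156199424 to 156200818, minus strand) encodes a ubiquitin-like protein that is attached to other proteins. It was at 4.21, 4.66 and 4.14 CPM in the knockout and at 2.76, 4.11 and 3.998 CPM in the wild type. The groups were separated by only the gap between 4.11 and 4.14 CPM, and wild-type replicate 1 alone stood low (log2 fold change 0.26, SE 0.24, edgeR adjusted p = 0.568). Without that library it was 0.098. It was the least counted of the 9, with 67 to 122 counts per library, where Parp14 had 811 to 1212.

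Ifih1 (chromosome 2, 62595798 to 62646255, minus strand) encodes MDA5, a cytoplasmic sensor of long double-stranded RNA. It was at 13.7, 17.2 and 18.0 CPM in the knockout and at 11.9, 14.7 and 9.86 CPM in the wild type. Knockout replicate 1 lay below wild-type replicate 2 (log2 fold change 0.43, SE 0.18, edgeR adjusted p = 0.225). The value was 0.60 without wild-type replicate 2 (edgeR adjusted p = 0.0391).

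By library, knockout replicate 2 was the highest of the 6 for 7 of the 9 genes, and wild-type replicate 3 the lowest for 5. Exceptions at the top were Ifih1, highest in knockout replicate 3, and Irf1, highest in wild-type replicate 3. Over the 36 pairs of genes, the correlation of log2 CPM across the 6 libraries had a median of 0.524 and ran from -0.186 to 0.913. These points share their libraries and the genotype difference, so the figures are descriptions. All 9 genes stayed above 0 with any 1 library left out, and the median of the 9 then ran from 0.28 (without knockout replicate 2) to 0.55 (without wild-type replicate 2). Without wild-type replicate 2, Parp14, Ifit1 and Ifih1 passed the test (3 of the 9), but so did 1826 of all genes, and 7.25% of all genes were called higher.

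**Figure D2:**
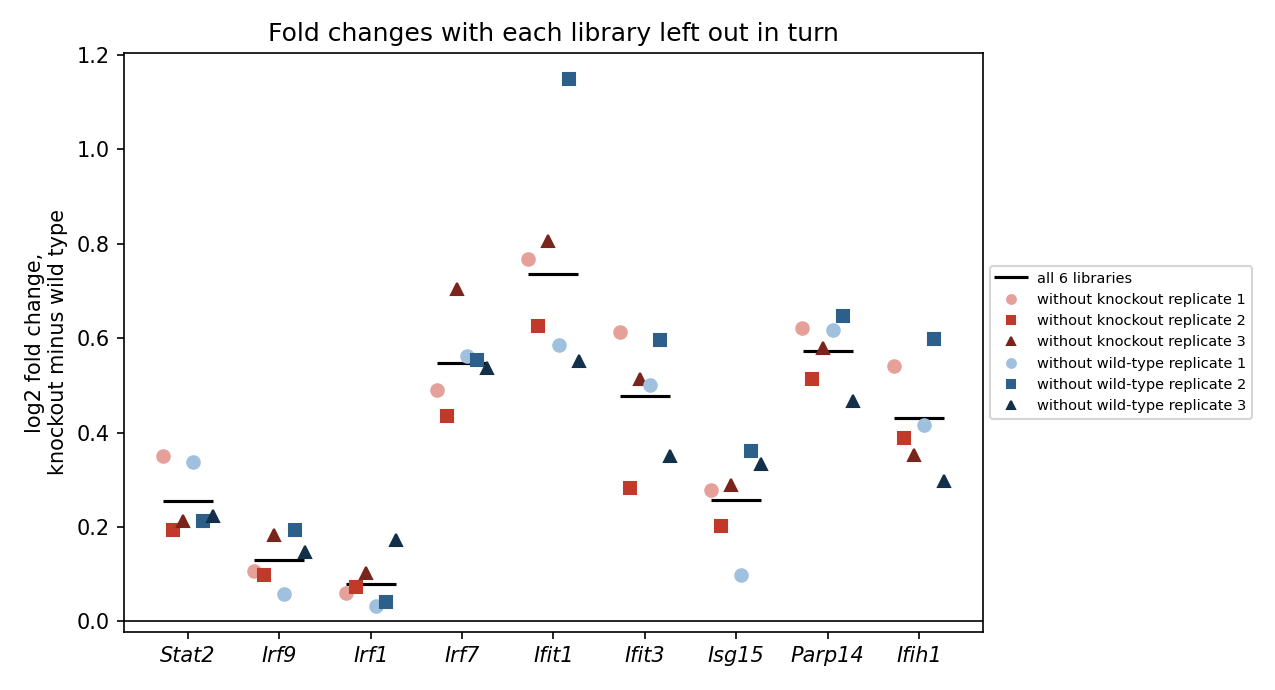
Log2 fold changes (vertical axis, knockout minus wild type) of the 9 genes with all 6 libraries (black bars) and with each library left out in turn (symbols). Every point lies above 0. Ifit1 reaches 1.15 without wild-type replicate 2, Ifit3 falls to 0.28 without knockout replicate 2 and Isg15 to 0.098 without wild-type replicate 1.

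Levels can be compared between genes only per length, so CPM was divided by the length of the longest coding transcript in kilobases. On that scale the wild-type order was Irf1 (14.0 ± 1.54 CPM per kb), Ifit3 (7.57 ± 1.25), Irf9 (6.74 ± 0.626), Stat2 (6.30 ± 0.624), Irf7 (5.85 ± 0.0989), Isg15 (4.79 ± 0.992), Parp14 (4.24 ± 0.558), Ifih1 (2.22 ± 0.440) and Ifit1 (2.13 ± 0.903), each as mean ± SD of 3 libraries. Irf1 stood clear of the next gene, and so did Irf7 of Isg15 and Parp14 of Ifih1, while the other neighbours overlapped. In the knockout, Irf7 was the third at 8.55 ± 1.72 CPM per kb, overlapping Ifit3 above it and Stat2 below it. Ifit1 and Ifih1 were lowest in both genotypes and overlapped each other in each. The isoforms present are not known from gene counts, so the lengths are approximate.

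Fold changes of all genes moved with GC content, and the 9 genes lie at different points of that trend. With genes split into 4 equal groups by GC content, the median in the lowest group (31.0% to 45.5%) was 0.20 on the log2 scale and 23.3% were higher at an unadjusted edgeR p under 0.05. In the highest group (55.0% to 75.5%) the median was -0.23 and 1.13% were higher. Ifih1 (42.76% GC) and Ifit1 (43.26%) lie in the lowest group, Parp14 (46.26%) and Ifit3 (47.51%) in the next, Stat2, Irf9, Isg15 and Irf1 (51.9% to 52.83%) in the third, and Irf7 (55.3%) in the highest. Irf7 thus lay above 0 in a group of genes whose median was below 0.

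When the trends of each library with GC content and transcript length were removed, all 9 genes were again above 0, with a median of 0.34, and 0 of the 9 passed. In that fit, 5 of the 9 had an unadjusted p under 0.05 and were higher, against 7.15% of all genes, with Stat2 in place of Ifih1. Irf7 went from 0.55 to 0.72 (edgeR adjusted p = 0.0755). Parp14 went from 0.57 to 0.34 (edgeR adjusted p = 0.197) and Ifih1 from 0.43 to 0.19 (edgeR adjusted p = 0.618). Isg15 went from 0.26 to 0.40 and Irf1 from 0.079 to 0.19. These 4, without Irf7, moved by more than 1.5 times. Ifit1 (0.64), Ifit3 (0.47), Stat2 (0.25) and Irf9 (0.19) moved less. The cause of the trend was not tested.

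**Figure D3:**
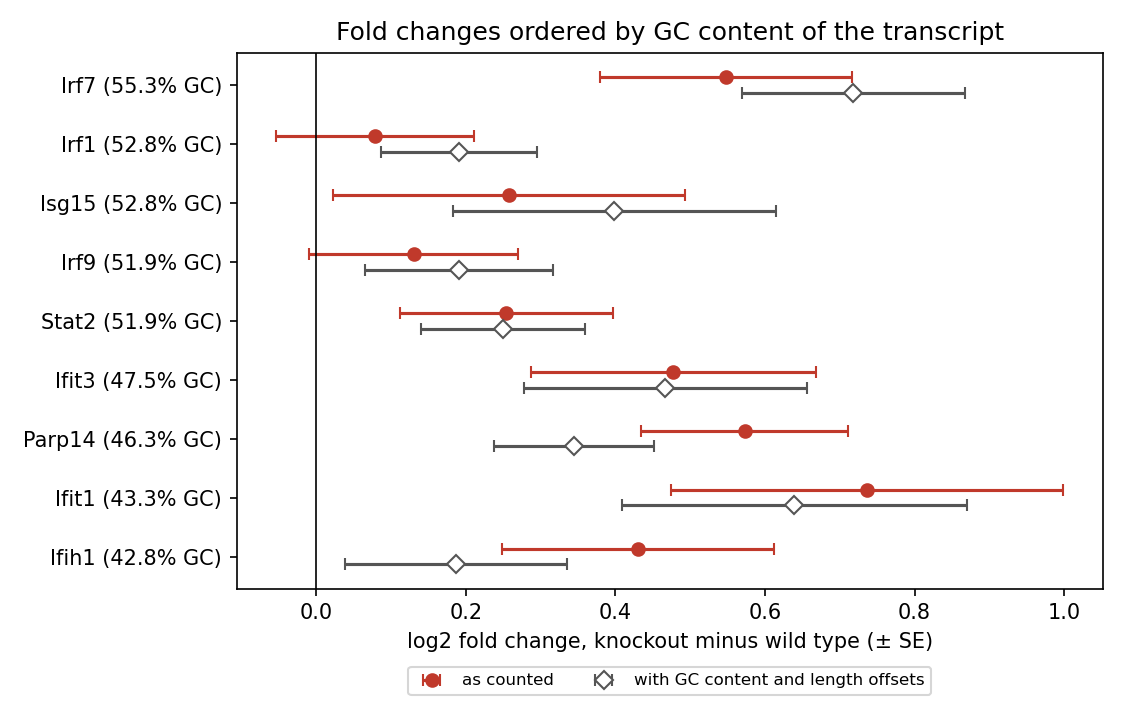
Log2 fold changes ± SE (horizontal axis, knockout minus wild type) of the 9 genes, ordered by GC content, as counted (circles) and with GC content and length offsets (diamonds). The offsets lower Parp14 from 0.57 to 0.34 and Ifih1 from 0.43 to 0.19 and raise Irf7 from 0.55 to 0.72.

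The genes next to the members were read from the same fit, and were chosen after their values were seen. In the Ifit cluster of chromosome 19, Ifit2 averaged 32.3 ± 6.80 CPM in the knockout, with 23.4 ± 6.19 CPM in wild-type hearts (log2 fold change 0.47, SE 0.20), close to Ifit3 in size. The copies Ifit1bl1 (0.56, SE 0.28) and Ifit1bl2 (0.31, SE 0.26) were also above 0. None of these passed over all genes (edgeR adjusted p from 0.244 to 0.532, and 0.376 for Ifit3b). Beside Parp14 on chromosome 16 lie Dtx3l and Parp9, which encode an E3 ligase and its partner and overlap each other on opposite strands. Dtx3l was at 0.33 (SE 0.15) and Parp9 at -0.016 (SE 0.15), the latter with means of 23.9 ± 1.68 and 24.1 ± 3.35 CPM. Whether the counting used strand is not known from the sources used here, so reads of their overlap cannot be assigned with certainty.

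Upstream of the 9 genes, 5 of 9 receptor chain and kinase genes were above 0, and the median of the 9 was 0.022 on the log2 scale. In the reported test 0 passed over all genes, and 2 of the 9 were higher at an unadjusted p under 0.05 (10.2% of all genes were), the kinase genes Jak2 (0.32, SE 0.14) and Jak1 (0.27, SE 0.12). The interferon gamma receptor chain gene Ifngr2 was at 0.20 (SE 0.11), and the type I receptor chain gene Ifnar2 at -0.13 (SE 0.13). With the GC content and length offsets 0 of the 9 were at an unadjusted p under 0.05. Without wild-type replicate 2, 1 of the 9, Jak2, passed (edgeR adjusted p = 0.0495), where 7.25% of all genes were called higher. The median was -0.0024 when libraries were scaled by their totals alone.

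A list of 4 measured STAT genes beside Stat2 had a median of 0.067, and 0 of the 4 were at an unadjusted edgeR p under 0.05. Stat3 (0.12, SE 0.12), Stat5a (0.11, SE 0.15), Stat5b (0.021, SE 0.14) and Stat6 (-0.025, SE 0.12) differed by about their standard error or less. With the offsets 1 of the 4, Stat5a, was higher at an unadjusted p under 0.05 (all genes 7.15%), at 0.25 (edgeR adjusted p = 0.357). The other IRF genes and IRF2-binding proteins, 8 measured, had a median of -0.089 and 0 at an unadjusted p under 0.05. Irf3, which starts the type I response before IRF7 is made, averaged 28.4 ± 4.93 CPM in the knockout, with 34.3 ± 7.25 CPM in the wild type (-0.28, SE 0.17). Irf2bp1 (-0.40, SE 0.19), the member with the lowest p, is at 63.61% GC and was at 0.062 with the offsets. Irf4 (-0.33, SE 0.46) and Irf2bp2 (-0.088, SE 0.13) followed. The STAT median was -0.018 without wild-type replicate 2, and the IRF median was 0.041 without wild-type replicate 1. In the reported test 0 of the 12 passed over all genes. Without wild-type replicate 2, Irf2bp1 fell by 0.60 on the log2 scale (edgeR adjusted p = 0.0142), where 855 of the 13384 genes were called lower.

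Inhibitors of the pathway had a median of 0.14 over 11 measured genes, and 1, the deubiquitinase gene Usp15 (0.29, SE 0.13), was higher at an unadjusted p under 0.05 (all genes 10.2%). With the offsets Usp15 was at -0.10. Pias3 (-0.31, SE 0.15), an inhibitor of STAT3, Trim24 (0.27, SE 0.14) and the phosphatase gene Ptpn2 (0.26, SE 0.16) came next. Among sensors and adaptors, 12 of 17 measured were above 0 (all genes 49.45%) with a median of 0.15, and 5 were higher (all genes 10.2%) and 0 lower at an unadjusted p under 0.05. Rigi, which encodes RIG-I, a sensor of RNA ends and a relative of MDA5, averaged 21.03 ± 1.11 CPM in the knockout, with 15.1 ± 1.28 CPM in the wild type, without overlap (0.47, SE 0.14, edgeR adjusted p = 0.117). The DNA sensor gene Ifi204 (0.81, SE 0.25), the endosomal RNA receptor gene Tlr7 (0.65, SE 0.25) and the Z-form nucleic acid sensor gene Zbp1 (0.79, SE 0.31) were also higher without overlap. Such a separation held for 7 of the 17, against 11.8% of all genes. Over all genes 0 of the 17 passed in the reported test, and 1, Ifi204, did with DESeq2 (all genes 2.68%). Without wild-type replicate 2, Ifi204 and Rigi passed (2 of the 17, all genes 7.25%). With the offsets 3 of the 17 were higher at an unadjusted p under 0.05 (all genes 7.15%). The sensor median was 0.28 without wild-type replicate 2 and 0.26 when wild-type replicate 3 was left out, and that of the inhibitors was then 0.23.

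Around Isg15, the 7 genes of its conjugation had a median of 0.15 (0.037 with the offsets), and 1, Herc6, which encodes an E3 ligase for ISG15 in the mouse, was higher at an unadjusted p under 0.05 (all genes 10.2%). Herc6 averaged 10.4 ± 0.953 CPM in the knockout, with 7.10 ± 0.733 CPM in the wild type (0.55, SE 0.18), and its log2 fold change was 0.25 with the offsets. Herc3 (0.24, SE 0.13), Arih1 (0.17, SE 0.14) and Trim25 (0.15, SE 0.13) were nearer 0. Around Parp14, the 14 PARP family genes with Dtx3l had a median of 0.072, and Dtx3l was the 1 higher at an unadjusted p under 0.05 (all genes 10.2%). With the offsets that count was 0 and Dtx3l was at 0.15. That count was 0 without knockout replicate 1. It was 0 when wild-type replicate 3 was left out, and 3 of the 14 when wild-type replicate 2 was (all genes 16.3%). Tiparp was at 34.8, 13.1 and 14.9 CPM in the knockout and at 9.43, 14.3 and 8.72 CPM in the wild type, so 1 library held most of its difference (0.96, SE 0.41). Parp6 (-0.26, SE 0.14) and the antiviral zinc-finger gene Zc3hav1 (0.29, SE 0.15) came next. Over all genes 0 of both lists passed in the reported test. Without wild-type replicate 2, Herc6 passed (edgeR adjusted p = 0.0498), 1 of the 7 conjugation genes, where 7.25% of all genes were called higher.

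The other genes commonly induced by type I interferon had a median of 0.20, below the 0.43 of the 9 genes; the difference between these medians was not tested. Of 51 measured, 37 were above 0 (all genes 49.45%), and 11 were higher (all genes 10.2%) and 1 lower at an unadjusted p under 0.05. Over all genes 0 passed in the reported test, and 2 did with DESeq2 (Rnf213 and Trim30a, against 2.68% of all genes). Without wild-type replicate 2, 8 passed, against 7.25% of all genes. The count of 11 became 6 without knockout replicate 2 (all genes 9.3%). It became 6 when wild-type replicate 3 was left out (all genes 6.15%), and 16 when wild-type replicate 2 was (all genes 16.3%). Rnf213, which encodes a large E3 ligase with antimicrobial activity, averaged 85.6 ± 12.8 CPM in the knockout, with 53.3 ± 11.9 CPM in the wild type (0.68, SE 0.17, edgeR adjusted p = 0.0869). Trim30a (0.69, SE 0.19), Oasl1 (0.96, SE 0.30), which encodes a translational inhibitor of Irf7, and Samd9l (0.45, SE 0.15) followed. With the offsets Samd9l was at 0.14 and 9 of the 51 were higher at an unadjusted p under 0.05 (all genes 7.15%). By promoter, the 18 measured genes of this list with an ISRE-type string had a median of 0.34 and the 25 with a window but no such string 0.18, and with the offsets these medians were 0.14 and 0.14. Rsad2 (0.040, SE 0.17), which encodes viperin, an antiviral enzyme, was chosen after its values were seen, as an example of a classic induced gene near 0. Of the 51, 14 were below 0, and Xaf1, also chosen after its values were seen, was the lowest (-0.55, SE 0.37). Xaf1 was at 8.65, 7.56 and 21.4 CPM in the wild type and averaged 8.59 ± 0.329 CPM in the knockout, so wild-type replicate 3 held most of its difference.

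GTPase genes best known for induction by interferon gamma had a median of 0.66, all 14 measured above 0, with 10 higher at an unadjusted p under 0.05 (all genes 10.2%). Over all genes 1, Iigp1, rose (1.02, SE 0.16, edgeR adjusted p = 0.0362; 0.112% of all genes were called). Irgm2 (0.80, SE 0.15), Igtp (0.82, SE 0.18) and Gbp3 (0.72, SE 0.16) followed. With the offsets the median was 0.46, and Irgm2 and Igtp were the 2 that passed, with 48 called over all genes. The number that passed was 7 with DESeq2 (all genes 2.68%) and 9 without wild-type replicate 2 (all genes 7.25%). It was 0 with any of the other 5 libraries left out. It was also 0 with library totals only, with limma-voom and with edgeR without robust estimation, so the call of Iigp1 was lost under each of these.

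**Figure D4:**
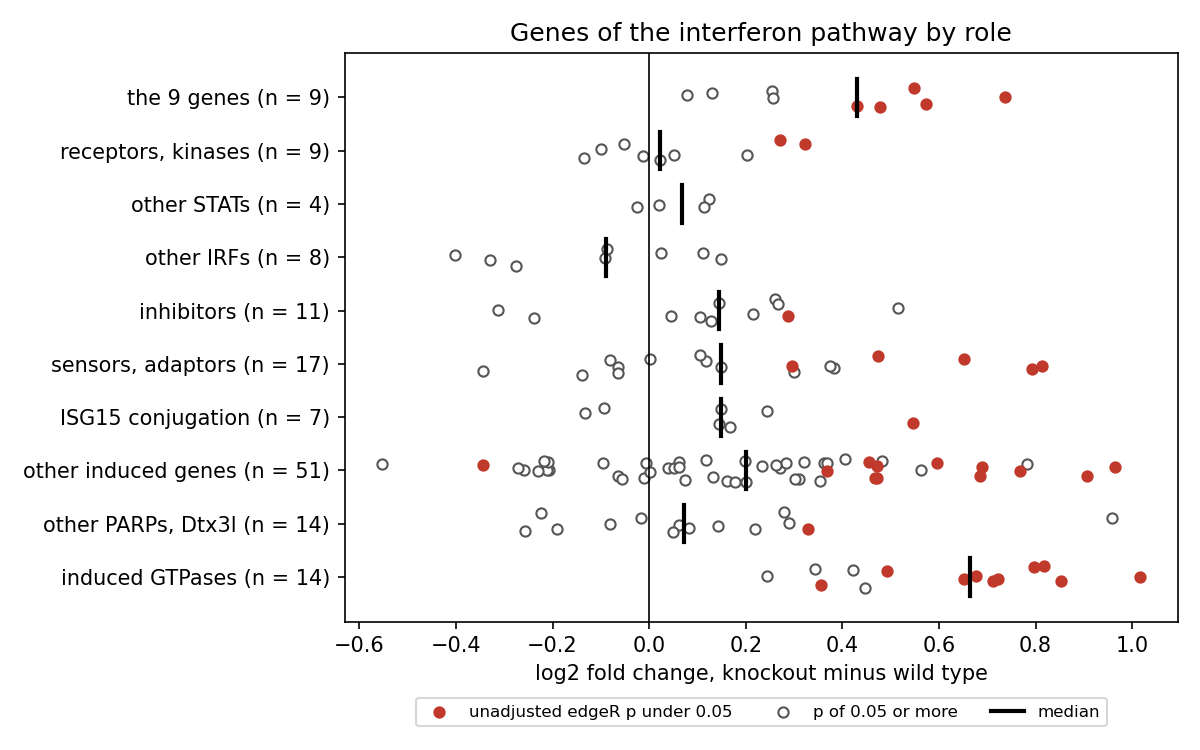
Log2 fold changes (horizontal axis, knockout minus wild type) of the 9 genes and of 9 lists of related genes, 1 point per gene, filled at an unadjusted edgeR p under 0.05. Black bars are medians: 0.43 for the 9 genes, 0.20 for other induced genes, 0.66 for the GTPase genes 0.022 for receptors and kinases and -0.089 for other IRF genes.

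Library totals ran from 23190864 to 30354857 counts. The 8 cardiomyocyte markers summed to between 64270 and 81310 CPM. Atrial markers, 5 measured, summed to 3042 CPM in wild-type replicate 1, to 2110 CPM in wild-type replicate 2 and to between 494.3 and 703.4 CPM elsewhere, so atrial markers moved with genotype too. The median of the 9 genes was 0.42 without the first of these libraries and 0.55 without the other, and the part of atrial content was not tested. Summed pan-leukocyte and macrophage markers were higher in the knockout, as the 9 genes were, though 0 of these markers passed over all genes in the reported test. The 6 pan-leukocyte markers summed to between 80.8 and 85.8 CPM in the knockout and between 56.6 and 73.8 CPM in the wild type, with 5 of 6 above 0. Ptprc, which encodes CD45, averaged 15.5 ± 2.15 CPM in the knockout, with 10.5 ± 1.95 CPM in the wild type (0.55, SE 0.18, edgeR adjusted p = 0.140). The 12 macrophage markers summed to between 360.1 and 410.4 CPM in the knockout and between 283.6 and 341.7 CPM in the wild type, with 9 of 12 above 0. These differed among themselves: Cd163 was at 0.91 (SE 0.17) and C1qa at -0.0042 (SE 0.16). With the offsets Cd163 was at 0.80 (edgeR adjusted p = 0.046) and C1qa, at 59.52% GC, at 0.31 (edgeR adjusted p = 0.419). The median of the macrophage markers was 0.21 as counted and 0.27 with the offsets. Cd163 passed in 4 of the 17 alternatives, DESeq2 among them (adjusted p = 0.000431). The 3 measured monocyte markers overlapped between the groups (17.3 to 21.3 CPM and 13.5 to 19.9 CPM), as did 3 B cell markers, all 3 below 0, and 2 neutrophil markers, each set summing to at most 10.4 CPM. None of 11 T and NK cell markers was analysed here. Of 6 plasmacytoid dendritic cell markers 3 were analysed, Bst2, Tcf4 and Irf8, with Siglech not among them. Bst2 and Irf8 also belong to the lists of other induced genes and other IRF genes above. All 3 were below 0, with overlapping sums of 158.4 to 181.6 CPM in the knockout and 162 to 201.6 CPM in the wild type. These sums exceeded those of the pan-leukocyte markers in every library, so they cannot be read as the content of that cell type. The part of leukocyte content in the results for the 9 genes was not tested.

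Mesothelial markers were lower in the knockout without overlap, with 3 of 4 below 0 and sums of 13.5 to 19.5 CPM in the knockout and 23.6 to 49.4 CPM in the wild type. Fibroblast markers were lower too, with 7 of 7 below 0 and sums of 1808 to 1862 CPM in the knockout against 2172 to 2827 CPM in the wild type. Summed endothelial markers overlapped, at 1385 to 1820 CPM in the knockout against 1616 to 1905 CPM in the wild type. Of these markers 7 of 9 were below 0 and 2 above (49.45% of all genes were above 0). None of the 9 passed over all genes (lowest edgeR adjusted p = 0.0976).

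The genes whose pattern was most like that of the 9 were found by the correlation of log2 CPM, over the 6 libraries, with the mean of the standardised values of the 9. They were Gdf11 (r = 0.990), Traf6 (0.989), Rapgef6 (0.988), Ly9 (0.986) and Bmp2k (0.982). Outside the 9, 151 genes reached 0.9. Traf6 was at 15.6, 17.4 and 16.3 CPM in the knockout and at 13.1, 14.3 and 13.3 CPM in the wild type, highest in replicate 2 of each group as most of the 9 were in the knockout. None of the 5 passed over all genes in the reported test. Rapgef6 passed with DESeq2 (adjusted p = 0.0189) and without wild-type replicate 2 (edgeR adjusted p = 0.0101). Of all genes, 2.68% and 7.25% were called higher in these analyses. The groups differ, so r also reflects the genotype difference. Gdf11 had only 24 to 61 counts per library and Ly9 17 to 39. Among the 9 themselves, r with that mean, which contains each of them, was highest for Parp14 (0.910) and Ifit1 (0.909) and lowest for Irf1 (0.349).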

How the data were processed

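The file that the authors deposited holds raw counts, not normalized, for 6 libraries by Entrez identifier and symbol. DESeq2 and the mm10 build are named, without versions, in the submitters' processing notes. The sources used here name no aligner, counter, annotation or strand setting. Each gene has at least 12 counts in every library, and genes with fewer were not analysed here. Cygb was not analysed here. The quasi-likelihood test of edgeR 4.0.16, run in R 4.3.3, used robust estimation, TMM factors and a filter on low counts (filterByExpr) that kept all 13384 genes, with no covariates. P-values were two-sided and adjusted by Benjamini-Hochberg over all genes. The common biological coefficient of variation was 0.166. Trends on GC content and length, read from the longest coding transcript in GENCODE M21 (found for 97.9% of genes), were removed with splines of 4 degrees of freedom. Promoter windows came from RefSeq on GRCm38.p6. The 17 alternatives changed the scaling, the filter, the tool (DESeq2 1.42.0, limma-voom in limma 3.58.1), robust estimation, the replicate block and the offsets, or left out a library. Alignments used blastn 2.17.0. The script was tested on simulated data whose planted changes were larger than those of the 9 genes in the reported fit. That test does not bear on the power to call changes of their size. Named genes are the 9, up to 4 genes of smallest p per related list, and the 5 of most similar pattern. The 9 genes, the lists and the tests were chosen with earlier results of these data known. A gene of the pathway is not reported here.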

Additional observations from a re-analysis of the deposited data

How the results depend on the processing

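Each of the 9 genes was above 0 in all 17 alternatives. None changed direction, and 4 values passed a test that the reported fit did not: Parp14 with DESeq2, and Parp14, Ifit1 and Ifih1 without wild-type replicate 2. The number of the 9 called higher was 0, and it was 1 with DESeq2 and ran from 0 to 3 with a library left out. Over all genes, 12 were called higher and 3 lower. Those counts were 5 and 2 with library totals only, 352 and 266 with DESeq2, 7 and 4 without robust estimation, 9 and 5 with limma-voom, 26 and 22 with GC content and length offsets, and 18 and 15 with these offsets and the replicate block. With a library left out they ran from 0 to 971 higher and from 0 to 855 lower. With the replicate block 131 genes were called higher and 87 lower, and 0 of the 9, with 7 of the 14 GTPase genes, 2 of the 51 other induced genes and no gene of the other lists. With the offsets and the block 0 GTPase genes were called. Whether the numbers pair the animals was not settled. Same-numbered knockout and wild-type libraries had correlations of -0.12, -0.075 and -0.147 in their deviations from the group means. No library correlated best with its own number. Deviations from a group mean sum to about 0, which ties these correlations to each other, so they cannot decide on pairing. List medians changed sign 3 times: receptors and kinases at -0.0024 with library totals only, the STAT list at -0.018 without wild-type replicate 2, and other IRF genes at 0.041 without wild-type replicate 1. With a library left out, those medians ran from -0.018 to 0.11 for STAT genes, from -0.14 to 0.041 for IRF genes and from 0.015 to 0.14 for receptors and kinases, and those of sensors ran from 0.13 to 0.28 and of PARP genes from 0.023 to 0.14. In all, 23 values of list medians moved by over 1.5 times without a change of sign. The longer ISRE-type string was held by 3 promoters in place of 5. The cause of these shifts was not tested. Counting limits Isg15 most, at 67 counts in its lowest library.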
